A study of Mus musculus with 18 samples.

Results

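The genes described here are 10 components of the Notch pathway in C3H/10T1/2 cells, a mouse mesenchymal progenitor cell (MPC) line, with and without *Atrx*. They are the receptors *Notch1*, *Notch2* and *Notch3*, the ligands *Jag1*, *Jag2* and *Dll1*, and the target genes *Hes1*, *Hey1*, *Hey2* and *Heyl*. Each was found by its symbol through the Entrez identifier of its row, and all 10 were among the 24100 gene rows of both deposited count tables. A Notch receptor is a transmembrane protein that is activated when a ligand of the Jagged or Delta-like family on a neighbouring cell binds it. Proteases then release the receptor's intracellular domain, which enters the nucleus, joins the DNA-binding protein RBPJ and coactivators of the Mastermind family, and switches on genes such as those of the Hes and Hey repressors. In mesenchymal cells the pathway is known for its part in keeping progenitors undifferentiated and in the fate of cells of the vessel wall.

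RNA was sequenced in 18 libraries of unstimulated cells, 9 after polyA selection and 9 after rRNA depletion. Each kind covers *Atrx* WT cells, which received the Cas9 vector without a guide, and 1 *Atrx* KO clone for each of the guides sg5 and sg6, with 3 libraries per line. A KO line is therefore a single clone, so that n = 3 stands for libraries of 1 line, and any other difference between these lines cannot be told apart from the loss of *Atrx*. Both clones are compared with the same *Atrx* WT libraries, so their differences from *Atrx* WT are not independent of each other. The labels do not say whether the 3 libraries of a line came from separate cultures, so the p-values measure the spread between these libraries, which may be technical.

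Total counts per polyA library ran from 27544833 to 80772108 in *Atrx* WT, from 161036799 to 235346363 in sg5 and from 58918732 to 71896907 in sg6, and rRNA-depleted libraries held 20135336 to 33187136 counts of genes and transposable element (TE) loci. *Atrx* itself was lower in both clones, by −1.24 and −1.20 on the log2 scale in polyA libraries and by −1.39 and −1.31 in rRNA-depleted ones, with no overlap between KO and WT libraries (edgeR quasi-likelihood adjusted p from 5.04e-05 to 0.00227). The 11 mesenchymal markers summed to between 18071 and 27127 CPM, the count per 1e+06 counts of a library, in polyA libraries, although *Nt5e* stayed at or under 0.355 CPM and *Thy1* averaged 0.997 CPM in *Atrx* WT, 0.307 CPM in sg5 and 134 CPM in sg6. The 6 endothelial markers with any count in polyA libraries summed to 1.71 to 2.84 CPM in *Atrx* WT, 10.1 to 14.9 CPM in sg5 and 9.32 to 12.0 CPM in sg6, where *Tek* alone averaged 11.5 and 9.33 CPM. *Tek* was called higher in both clones there (log2 fold change 3.54 and 3.24). *Pecam1* was called lower in both clones (log2 fold change −1.37 and −1.22, edgeR adjusted p = 0.0113 and 0.0269), at 0.340 CPM in *Atrx* WT, 0.136 CPM in sg5 and 0.152 CPM in sg6, and *Cdh5* and *Kdr* stayed at or under 0.332 and 0.167 CPM. The 7 epithelial markers went the other way, from 3.11 to 6.29 CPM in *Atrx* WT to 0.903 to 1.72 CPM in sg5 and 0.385 to 0.884 CPM in sg6, with *Epcam* at or under 0.0432 CPM. In *Atrx* WT, sg5 and sg6, *Cdh1* averaged 3.86, 1.24 and 0.412 CPM and *Krt14* 1.06, 0.00792 and 0.0531 CPM. Both were called lower in both clones in both kinds of library. The 7 leukocyte markers summed to 4.76 to 6.85 CPM over all polyA libraries. Genes with 0 counts in every library of a kind were left out beforehand. *Cldn5* was absent for polyA libraries, and *Cd3e* and *Krt5* for rRNA-depleted ones. The part of these markers in the results below was not tested. In bulk RNA, fewer cells expressing a gene and less RNA of it per cell cannot be told apart.

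Calls of higher or lower required an adjusted p below 0.05 (edgeR quasi-likelihood, Benjamini-Hochberg over all features) together with a log2 fold change beyond 1. In polyA libraries all 10 members were tested, and 4 were called higher and 2 lower in sg5 against *Atrx* WT. Of the 15480 genes tested in that comparison, 3.18% were called higher and 6.96% lower. In sg6, 3 members were called higher and 3 lower, against 3.64% and 7.54% of all genes. In both clones, *Hey1*, *Hey2* and *Jag1* were called higher and *Jag2* and *Heyl* lower, against 2.18% and 5.48% of all genes. The members were chosen with earlier results of these data known, so counts set beside these shares are descriptive and no test of the pathway. *Heyl* passed the filter on low counts only through *Atrx* WT and could only be called lower, so its call is no support for the count. *Hey2* had only 2 WT libraries over the cutoff of that filter and passed it through the clones, so its call is no support either. *Dll1* had 0 sg6 libraries over it and could only be called lower in sg6. The median log2 fold change of the members was 0.32 in sg5 and 0.43 in sg6, beside 0.00 and −0.01 over all genes tested, and the members moved in both directions. In rRNA-depleted libraries 8 members were tested, since *Dll1* and *Heyl* were too rare. There, 4 were called higher and 1 lower in sg5, and 1 higher and 1 lower in sg6. Of the 13303 genes tested beside TE loci, 3.04% were called higher and 4.31% lower in sg5, and 2.16% and 3.59% in sg6. Over the 56086 genes and TE loci together, 3.06% were called in either direction in sg5 and 2.45% in sg6. *Hey2* higher and *Jag2* lower were the calls shared by both clones in rRNA-depleted libraries, where 1.36% of genes were called higher and 2.62% lower in both. *Hey2* passed the filter there only through the clones, so it could only be called higher.

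Upstream sequence is shown for *Hey2* and *Jag1*, which were called higher in both clones in polyA libraries and which have a promoter entry that reaches outside their own transcripts. The sequences come from RefSeq on GRCm38.p6, in which 7 of the 10 members have a promoter entry, whether or not it reaches outside their transcripts. Each runs 5′ to 3′ along the gene's strand, the minus strand in both, and ends where the longest GENCODE M21 transcript of the gene begins. Short motifs were searched on both strands. TGGGAA is the core bound by RBPJ, GTGGGAA is its longer form and contains the first, and CACGTG and CACGCG are sites that Hes and Hey repressors are known to bind. Capitals mark every match. The *Hey2* window covers 232 bases at chr10:30842802-30843033 and the *Jag1* window 126 bases at chr2:137116645-137116770.
Hey2: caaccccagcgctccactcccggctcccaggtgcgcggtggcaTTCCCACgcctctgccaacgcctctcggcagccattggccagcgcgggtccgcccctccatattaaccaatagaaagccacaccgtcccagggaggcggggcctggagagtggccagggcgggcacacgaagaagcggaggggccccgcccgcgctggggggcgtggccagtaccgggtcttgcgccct
Jag1: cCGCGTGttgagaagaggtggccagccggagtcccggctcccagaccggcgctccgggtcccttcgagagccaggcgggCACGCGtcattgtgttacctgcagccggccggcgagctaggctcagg

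The *Hey2* window holds 1 match to GTGGGAA on the opposite strand, between 207 and 201 bases before the RefSeq start, and no match to CACGTG or CACGCG. Windows at the same place before 32851 mouse promoters hold GTGGGAA in 5.0% of cases and TGGGAA in 20.2%. The *Jag1* window holds 2 matches to CACGCG, 249 to 244 and 171 to 166 bases before the start, and none of the other 3 motifs. CACGCG occurs in 3.16% of windows of that length. The G and C content was 71.1% for *Hey2* and 70.6% for *Jag1*, beside medians of 52.2% and 50.8% over all promoters in the same windows. These matches describe letters only, and no binding was measured here.

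Levels of different genes were compared per length, as CPM per kb of the longest coding transcript, over the polyA libraries. In *Atrx* WT, *Notch1* (19.6 CPM per kb ± 2.37, SD, n = 3) and *Notch2* (16.2 ± 1.26) led, and their libraries did not overlap. *Jag1* (9.56 ± 2.22), *Notch3* (6.88 ± 2.50) and *Hes1* (6.33 ± 6.29) followed, with overlap between each and the next. *Jag2* stood at 0.946 CPM per kb and *Dll1* at 0.123. *Hey1* (0.0787), *Hey2* (0.0654) and *Heyl* (0.050) closed the order and overlapped from one to the next. In both clones *Notch1*, *Hes1*, *Jag1* and *Notch2* took the leading places, in that order of means, and each overlapped the next. *Hey1* and *Hey2* stood above *Jag2* in both clones and below it in *Atrx* WT, without overlap between *Hey2* and *Jag2* in any line. The order differed in rRNA-depleted libraries, where *Hes1* led in every line without overlap, with *Jag1* next. There *Hes1* averaged 33.2 CPM per kb in *Atrx* WT, 74.1 in sg5 and 61.8 in sg6, and *Jag1* 6.02, 10.5 and 7.64.

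**Figure D1:**
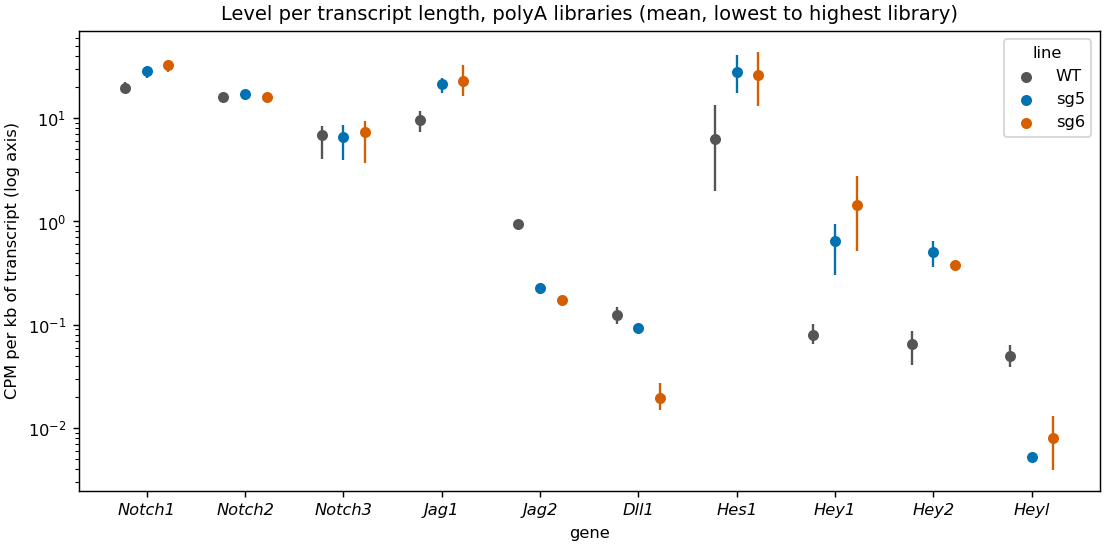
Level of each member per transcript length in polyA libraries, in CPM per kb on a log axis. Points are means of 3 libraries of a line and bars run from the lowest to the highest library. The receptors and *Jag1* lie at or above 3.65 CPM per kb in every library, while *Dll1* and *Heyl* lie at or under 0.149 CPM per kb throughout.

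None of the receptors was called in polyA libraries, and *Notch1* was called higher in sg5 in rRNA-depleted ones. *Notch1*, on chromosome 2 at 26457902-26503822 (GRCm38), had 171, 174 and 212 CPM in *Atrx* WT, 287, 235 and 293 CPM in sg5 and 265, 325 and 346 CPM in sg6. The KO libraries all exceeded the WT libraries. The log2 fold change was 0.55 in sg5 (SE 0.13, edgeR adjusted p = 0.0156) and 0.75 in sg6 (SE 0.13, adjusted p = 0.00294), which passed the test on p and stayed under the fold threshold. In rRNA-depleted libraries *Notch1* had 33.7, 34.2 and 35.0 CPM in *Atrx* WT, 75.5, 129 and 46.7 CPM in sg5, and 64.8, 29.9 and 54.9 CPM in sg6. The sg5 libraries all lay above *Atrx* WT and the gene was called higher (log2 fold change 1.29, SE 0.32, edgeR adjusted p = 0.0405), in the full fit and in 5 of the 9 fits with 1 library left out. It was not called without WT replicate 1 (1.32, adjusted p = 0.101), WT replicate 2 (1.29, adjusted p = 0.118), WT replicate 3 (1.29, adjusted p = 0.143) or sg5 replicate 2 (0.88, adjusted p = 0.151). In sg6 1 library lay below *Atrx* WT and the difference did not pass (0.54, SE 0.32, adjusted p = 0.553). There are 2 annotated antisense genes that overlap *Notch1*, and since the strand setting of the counting is not given in the sources used here, their reads cannot be told apart from its own.

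*Notch2*, on chromosome 3 at 98013538-98150367, was the receptor whose polyA level varied least. It had 161, 164 and 186 CPM in *Atrx* WT, 194, 158 and 193 CPM in sg5 and 161, 159 and 183 CPM in sg6. The 3 lines overlapped, and the 95% interval of the log2 fold change ran from −0.14 to 0.33 in sg5 and from −0.26 to 0.21 in sg6. In rRNA-depleted libraries it had 41.0, 50.1 and 46.3 CPM in *Atrx* WT, 62.4, 104 and 53.6 CPM in sg5 and 44.0, 34.4 and 52.2 CPM in sg6. There the sg5 libraries lay above both other lines, without passing the test against *Atrx* WT (0.68, SE 0.23, edgeR adjusted p = 0.137) or against sg6 (0.75, SE 0.23, adjusted p = 0.33). Of the 31-base words in *Notch2* transcripts, 4.28% also occur in other genes, mostly in *Gm42820*, a transcript annotated inside the locus.

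*Notch3*, on chromosome 17 at 32120820-32166896, is the receptor known from mural cells of blood vessels. Its polyA levels were 32.0, 65.3 and 68.1 CPM in *Atrx* WT, 31.5, 58.8 and 68.7 CPM in sg5 and 29.3, 74.8 and 74.5 CPM in sg6. Replicate 1 was the lowest library of every line, at 29.3 to 32.0 CPM beside 58.8 to 74.8 CPM in the other libraries, and the lines overlapped. The log2 fold changes were −0.06 (95% interval −1.01 to 0.88) in sg5 and 0.11 (−0.84 to 1.05) in sg6, so changes of up to about the fold threshold were not detectable. In rRNA-depleted libraries *Notch3* was scarce, with 1.93, 4.02 and 3.70 CPM in *Atrx* WT, 0.50, 4.51 and 2.13 CPM in sg5 and 1.90, 2.24 and 4.56 CPM in sg6. Replicate 1 was again the lowest of each line, the lines overlapped, and neither difference passed (adjusted p = 0.746 and 0.953).

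The ligands moved apart from each other. *Jag1*, on chromosome 2 at 137081451-137116520, was higher in both clones in polyA libraries. It had 66.1, 53.6 and 41.2 CPM in *Atrx* WT, 138, 127 and 98.3 CPM in sg5 and 185, 111 and 92.3 CPM in sg6. All KO libraries lay above the WT libraries, and replicate 1 was the highest and replicate 3 the lowest of each line. The change was 2.26-fold in sg5 (log2 fold change 1.18, SE 0.27, edgeR adjusted p = 0.0112) and 2.41-fold in sg6 (1.27, SE 0.27, adjusted p = 0.00669). Without sg6 replicate 1 the change in sg6 fell under the fold threshold, at 0.91 (adjusted p = 0.0159). In rRNA-depleted libraries *Jag1* had 32.9, 42.1 and 26.3 CPM in *Atrx* WT, 19.7, 105 and 52.7 CPM in sg5 and 35.7, 54.6 and 38.3 CPM in sg6. Those lines overlapped, sg5 held both the lowest and the highest library of all 9, and neither difference passed (0.81 in sg5, edgeR adjusted p = 0.353, and 0.35 in sg6, adjusted p = 0.827). Without sg5 replicate 1, the lowest library, the difference in sg5 was called (1.25, adjusted p = 0.0154).

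*Jag2*, on chromosome 12 at 112907803-112929812, was lower in both clones and in both kinds of library. Its polyA levels were 5.27, 4.54 and 4.67 CPM in *Atrx* WT, 1.31, 1.0 and 1.18 CPM in sg5 and 0.858, 0.916 and 0.852 CPM in sg6. No KO library came near the WT libraries, and the 3 libraries within each line lay close together. *Jag2* was 4.15-fold lower in sg5 (log2 fold change −2.05, SE 0.16, edgeR adjusted p = 3.37e-05) and 5.50-fold lower in sg6 (−2.46, SE 0.17, adjusted p = 1.45e-05). In rRNA-depleted libraries it had 3.50, 4.61 and 2.62 CPM in *Atrx* WT, 0.346, 0.334 and 0.464 CPM in sg5 and 0.345, 1.12 and 1.01 CPM in sg6. The change there was −3.20 in sg5 (SE 0.43, edgeR adjusted p = 0.000652) and −2.10 in sg6 (SE 0.39, adjusted p = 0.00861), and again no KO library reached *Atrx* WT. The counts behind these values were 80 to 125 in *Atrx* WT and 6 to 30 in the clones. The call was kept in each of the 9 fits with 1 library left out, in both clones and both kinds of library.

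*Dll1*, on chromosome 17 at 15367354-15376932, separated the clones. It was a rare transcript with 0.419, 0.366 and 0.534 CPM in *Atrx* WT, 0.322, 0.318 and 0.345 CPM in sg5 and 0.0592, 0.0964 and 0.0533 CPM in sg6. These are 12 to 32 counts in *Atrx* WT, 51 to 73 in the more deeply sequenced sg5 and 3 to 6 in sg6. *Dll1* was lower in sg6 by −2.62 (SE 0.31, edgeR adjusted p = 0.000342) and differed from *Atrx* WT in sg5 by −0.40 (SE 0.23, adjusted p = 0.237). The difference between the clones was itself called, at 2.21 higher in sg5 (SE 0.30, adjusted p = 0.0029). With 0 sg6 libraries over the cutoff of the low-count filter, *Dll1* could only be called in these directions, so neither call is support for a difference. *Dll1* was the only member called between clones in polyA libraries, where 2.61% of all genes were. With 1 to 3 counts in sg5 and 0 to 3 in sg6, *Dll1* was not tested in rRNA-depleted libraries, and *Atrx* WT had 12, 3 and 12 counts there. An annotated lincRNA overlaps *Dll1* on the opposite strand.

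**Figure D2:**
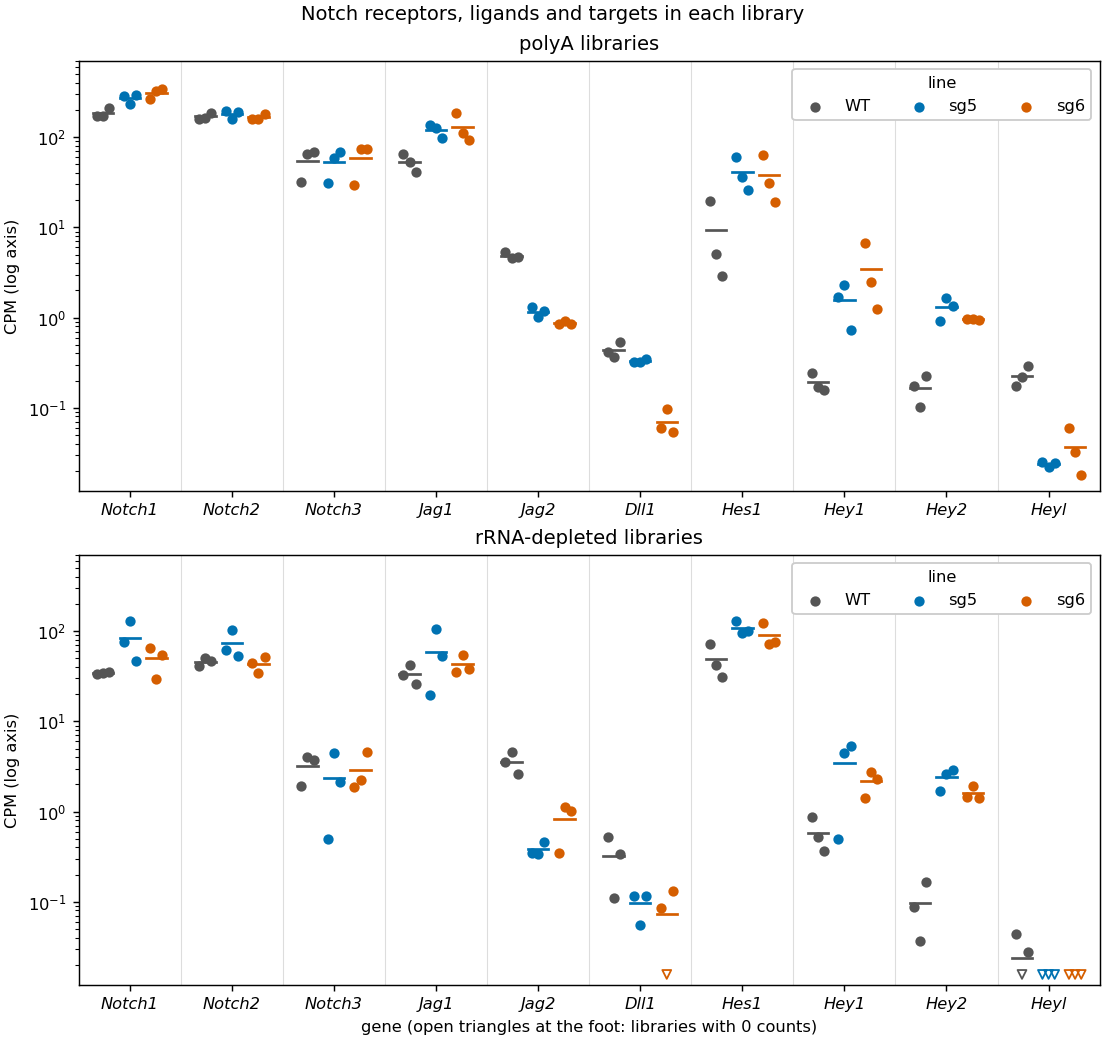
CPM of each member in every library on a log axis, in polyA libraries (upper panel) and rRNA-depleted libraries (lower panel). Each point is 1 library, in the order of replicates 1 to 3 within a line, short bars are line means and open triangles at the foot are libraries with 0 counts. *Jag2* and *Hey2* separate KO from WT libraries in both panels, in opposite directions, while *Notch2* and *Notch3* overlap in the upper one.

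Of the target genes, *Heyl* in sg5 and *Hey1* in sg6 had the widest log2 fold changes of all members in polyA libraries. In rRNA-depleted libraries *Hey2* had the widest in both clones. The other target genes did not all exceed the ligands. *Jag2* changed more than *Hey1* and *Hes1* in rRNA-depleted libraries, and *Dll1* changed about as much as *Hey2* and *Heyl* in sg6 in polyA libraries. *Hey2*, on chromosome 10 at 30832359-30842783, encodes a repressor known from heart and artery development. It had 0.175, 0.103 and 0.222 CPM in polyA libraries of *Atrx* WT, 0.922, 1.64 and 1.34 CPM in sg5 and 0.962, 0.964 and 0.941 CPM in sg6. All KO libraries lay above all WT libraries, whose values rest on 5 to 10 counts. *Hey2* was 8.33-fold higher in sg5 (log2 fold change 3.06, SE 0.33, edgeR adjusted p = 0.000234) and 6.10-fold higher in sg6 (2.61, SE 0.34, adjusted p = 0.000578). In rRNA-depleted libraries it had 0.0876, 0.0369 and 0.167 CPM in *Atrx* WT, 1.69, 2.62 and 2.90 CPM in sg5 and 1.46, 1.90 and 1.40 CPM in sg6. The log2 fold change there was 4.48 in sg5 (SE 0.46, edgeR adjusted p = 7.43e-05) and 3.89 in sg6 (SE 0.46, adjusted p = 0.000256), against 1 to 6 counts per WT library. Without WT replicate 3 these values were 5.18 (adjusted p = 0.000404) and 4.60 (adjusted p = 0.00107). With 0 WT libraries over the cutoff of the low-count filter there, *Hey2* could only be called higher. The difference between the 2 kinds of library was not tested. In polyA libraries the call was kept in each of the 9 fits with 1 library left out, in both clones, although *Hey2* passed the low-count filter there only through the clones.

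*Hey1*, on chromosome 3 at 8663359-8667038, encodes a close relative of *Hey2*. Its polyA levels were 0.245, 0.172 and 0.156 CPM in *Atrx* WT, 1.67, 2.29 and 0.728 CPM in sg5 and 6.67, 2.49 and 1.26 CPM in sg6. Again no KO library fell within the WT range, and the libraries of sg6 were spread over a wider range than those of sg5. *Hey1* was 8.51-fold higher in sg5 (log2 fold change 3.09, SE 0.74, edgeR adjusted p = 0.0142) and 18.9-fold higher in sg6 (4.24, SE 0.75, adjusted p = 0.00268). The WT values rest on 7, 15 and 7 counts. Without sg6 replicate 1, the highest library, the change in sg6 was 3.34 (adjusted p = 0.00445), and without WT replicate 2 the call in sg5 was lost (3.0, adjusted p = 0.0668). The difference between the clones did not pass (−1.15, 95% interval −2.44 to 0.13). In rRNA-depleted libraries *Hey1* had 0.876, 0.516 and 0.362 CPM in *Atrx* WT, 0.50, 4.51 and 5.33 CPM in sg5 and 1.42, 2.76 and 2.32 CPM in sg6. Replicate 1 of sg5 lay among the WT libraries, yet *Hey1* was called in sg5 (2.58, SE 0.65, edgeR adjusted p = 0.0429) and not in sg6 (1.92, SE 0.65, adjusted p = 0.185), whose 3 libraries were all above *Atrx* WT. The call in sg5 was made in 3 of the 9 fits with 1 library left out. It was lost without each WT library in turn (2.29 to 3.01, adjusted p from 0.0684 to 0.199), sg5 replicate 2 (2.38, adjusted p = 0.106), sg5 replicate 3 (2.09, adjusted p = 0.124) or sg6 replicate 3 (2.60, adjusted p = 0.0537). Without sg5 replicate 1 the gene was also called in sg6 (1.96, adjusted p = 0.00591).

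*Hes1*, on chromosome 16 at 30065357-30067796, encodes a repressor of differentiation genes whose own transcript turns over fast. Its polyA levels were 19.9, 5.11 and 2.89 CPM in *Atrx* WT, 60.0, 36.6 and 25.7 CPM in sg5 and 64.2, 31.3 and 19.3 CPM in sg6. Replicate 1 was the highest and replicate 3 the lowest of every line, and replicate 3 of sg6 lay just under replicate 1 of *Atrx* WT, while all sg5 libraries lay above *Atrx* WT. The log2 fold change was 2.18 in sg5 (SE 0.70, edgeR adjusted p = 0.0474) and 2.09 in sg6 (SE 0.70, adjusted p = 0.0503), on either side of the threshold, and the difference between the clones was 0.09 (95% interval −1.40 to 1.58). In sg5 the call was made in 3 of the 9 fits with 1 library left out. It was lost without WT replicate 2 or 3 (1.86 and 1.76), without any 1 of the sg5 libraries (1.79 to 2.41) or without sg6 replicate 2 (2.17), with adjusted p from 0.059 to 0.156, and without WT replicate 1 the value was 3.33 (adjusted p = 0.00518). In sg6 the gene was called without WT replicate 1 (3.24, adjusted p = 0.00495) or sg6 replicate 3 (2.41, adjusted p = 0.0434). Blocking the libraries by their replicate numbers also gave a call of *Hes1* in sg6 (2.27, adjusted p = 0.000449). All 9 polyA libraries correlated best on average with their own number, yet r within same-numbered pairs fell as low as 0.0257. The numbers were therefore not taken as pairs, and the *Hes1* call in sg6 depends on that choice. In rRNA-depleted libraries *Hes1* had 72.5, 42.7 and 30.9 CPM in *Atrx* WT, 129, 96.4 and 101 CPM in sg5 and 125, 71.8 and 75.7 CPM in sg6. Replicate 1 was again the highest of every line. The change was called in sg5 (1.16, SE 0.28, edgeR adjusted p = 0.0365), in the full fit and in 3 of the 9 fits with 1 library left out, and did not pass in sg6 (0.90, SE 0.28, adjusted p = 0.139). The sg5 call was lost without WT replicate 2 or 3 (1.07 and 0.90), any 1 of the sg5 libraries (1.05 to 1.28) or sg6 replicate 3 (1.18), with adjusted p from 0.0519 to 0.171, and without WT replicate 1 the gene was called in sg6 (1.35, adjusted p = 0.0225).

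*Heyl*, on chromosome 4 at 123233556-123249870, encodes the remaining Hey repressor and went the other way from *Hey1* and *Hey2*. It had 0.175, 0.217 and 0.289 CPM in polyA libraries of *Atrx* WT, 0.0253, 0.0218 and 0.0247 CPM in sg5 and 0.0592, 0.0321 and 0.0178 CPM in sg6. These values rest on 5, 19 and 13 counts in *Atrx* WT, 4, 5 and 4 in sg5 and 4, 2 and 1 in sg6, and KO and WT libraries did not overlap. The log2 fold change was −3.21 in sg5 (SE 0.38, edgeR adjusted p = 0.00036) and −2.58 in sg6 (SE 0.43, adjusted p = 0.00203). In rRNA-depleted libraries it was listed with 1, 0 and 1 counts in *Atrx* WT and 0 in every KO library, which is within the 3 counts that a count of 0 allows, and no fold is given.

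**Figure D3:**
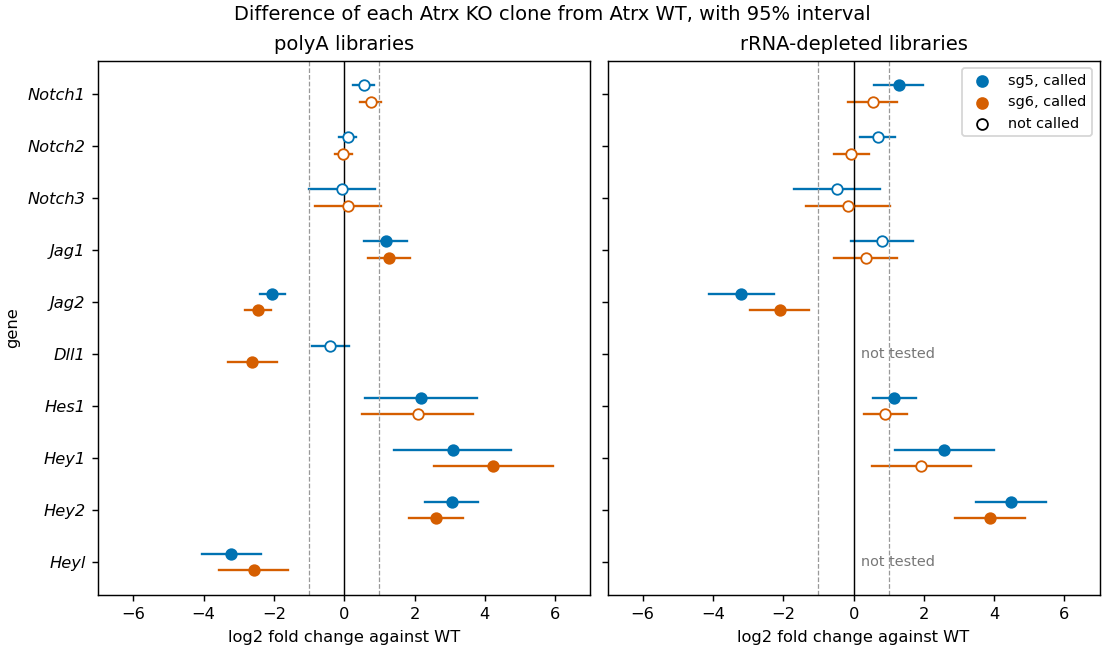
Log2 fold change of each member in sg5 and sg6 against *Atrx* WT, with 95% intervals as bars, in polyA (left) and rRNA-depleted libraries (right). Filled points are called, open points are not, and dashed lines mark a log2 fold change of 1 in either direction. *Hey2* lies between 2.61 and 4.48 and *Jag2* between −3.20 and −2.05 in all 4 comparisons, while *Notch2* lies between −0.07 and 0.68.

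Between the clones, 0 members were called in rRNA-depleted libraries by edgeR and 0 by DESeq2, where 1.48% of genes were called by edgeR, and 3 of the 8 had an unadjusted p below 0.05, beside 13.5% of genes. The intervals were wide, for example −0.15 to 1.33 for *Hey2* and −2.07 to −0.12 for *Jag2* on the log2 scale.

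Patterns over the libraries were compared for *Hey2* and *Jag2*, the members called in both clones in both kinds of library. Among 10667 other genes of at least moderate level, the Pearson r of log2 CPM with *Hey2* over all 18 libraries, each kind centred on its own mean, was highest for *Sgce* (0.97) and *Tgm2* (0.97). For *Jag2* it was highest for *Ccl2* (0.97) and *Ints2* (0.96). The points are libraries of only 3 lines, so these values describe genes that separate the same lines.

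The pathway list held 49 other genes, from receptor cleavage to ligand trafficking. In polyA libraries 44 of them were tested, and edgeR and DESeq2 each called 0 in both clones, while 10 were higher and 5 lower in both clones at an unadjusted p below 0.05, against 15.3% and 14.0% of all genes. Their median log2 fold change was 0.05 in sg5 and 0.10 in sg6. In rRNA-depleted libraries 42 were tested, again with 0 called in both clones by edgeR or DESeq2 and with 7 higher and 1 lower at an unadjusted p below 0.05, against 9.76% and 7.20% of genes. Their medians were 0.26 and 0.04, beside 0.08 and 0.04 over all genes. Calls in a single clone were few, and the genes behind them are named here after their values were seen. *Dtx4*, which encodes a Deltex ubiquitin ligase, was called lower in sg5 in both kinds of library (−1.17 in polyA, SE 0.29, edgeR adjusted p = 0.0176, and −1.61 in rRNA-depleted, SE 0.29, adjusted p = 0.00539). *Dlk1*, which encodes a Delta-like protein known as an inhibitor of fat cell formation, was called lower in sg6 in polyA libraries, with a mean of 0.715 CPM beside 9.39 CPM in *Atrx* WT (−3.71, SE 0.71, adjusted p = 0.004). The sg5 libraries had 31.4, 6.07 and 5.81 CPM of *Dlk1* and *Atrx* WT 11.5, 6.65 and 10.0 CPM, so that replicate 1 of sg5 lay above *Atrx* WT and the others below it. In rRNA-depleted libraries *Dlk1* averaged 0.213 CPM in sg6 beside 0.843 CPM in *Atrx* WT and was not called. *Aph1b*, which encodes a subunit of the γ-secretase that cuts the receptors, was called higher in sg5 in rRNA-depleted libraries (1.10, SE 0.23, adjusted p = 0.0166).

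By adjusted p alone, with no minimum fold, 7 of the 44 genes were higher and 2 lower in both clones in polyA libraries, against 10.5% and 9.70% of all genes. These genes too were named after their values were seen. The higher ones included *Adam10* and *Adam17*, which encode the proteases that shed the receptor's outer part, *Maml2*, which encodes a Mastermind coactivator, *Mib1*, which encodes a ligase that drives ligand endocytosis, and *Numb* and *Itch*, whose products lower receptor levels. The log2 fold changes of these 6 ran from 0.24 for *Itch* in sg6 to 0.68 for *Numb* in sg6. The lower ones were *Kat2a*, which encodes a histone acetyltransferase (−0.63 in sg5, adjusted p = 0.00036, and −0.46 in sg6, adjusted p = 0.00162), and *Dtx4*. *Rbpj*, which encodes the DNA-binding partner of the receptor, averaged 180 CPM in *Atrx* WT, 151 CPM in sg5 and 146 CPM in sg6 and did not pass the test (−0.26 and −0.30, adjusted p = 0.239 and 0.16). In rRNA-depleted libraries 1 of the 42, *Adam17*, was higher in both clones by adjusted p alone (0.66, SE 0.16, edgeR adjusted p = 0.0281, and 0.64, SE 0.15, adjusted p = 0.0412), against 2.32% of genes.

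By role, 3 of the 10 genes of receptor cleavage were higher in both clones by adjusted p alone in polyA libraries, with 1 of 12 higher and 1 lower for the nuclear complex and 3 of 12 higher and 1 lower for trafficking and turnover. For the 4 glycosylation genes tested, which encode enzymes that modify the receptors' sugars, values ran from −0.34 to 0.62 on the log2 scale over both clones. The 2 other target genes tested lay between −0.16 and 0.15. The 3 remaining receptor and ligand genes, without *Dlk1*, lay between −0.88 and 0.23.

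**Figure D4:**
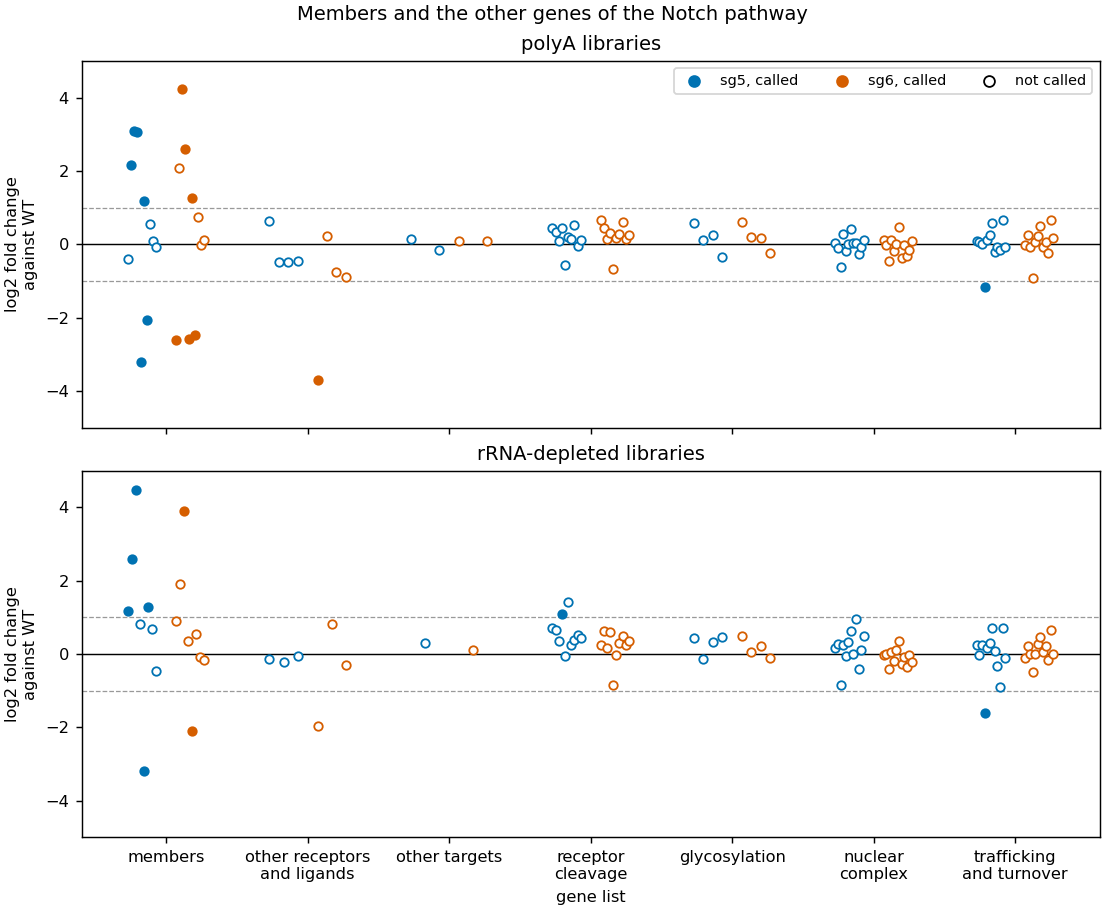
Log2 fold change in sg5 and sg6 against *Atrx* WT of the members and of the other pathway genes tested, grouped by role, in polyA (upper panel) and rRNA-depleted libraries (lower panel). Each point is 1 gene, filled where called, and dashed lines mark a log2 fold change of 1 in either direction. Outside the members, 2 points are filled in the upper panel and 2 in the lower one.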

How the data were processed

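PolyA and rRNA-depleted RNA-seq of C3H/10T1/2 MPCs was taken as the authors deposited it. For polyA libraries, the authors quantified reads with Salmon (0.8.2 in the submitters' processing notes) on mm10 known genes and deposited estimated counts per gene, unnormalised. The deposited expected counts were rounded to whole numbers, which they already were. The rRNA-depleted table holds the read counts that the authors deposited from TElocal after STAR alignment, per gene and TE locus, unnormalised. The strand setting is not given in the sources used here. All per-sample columns were used. Entrez identifiers were matched to symbols through a RefSeq gene table of GRCm38.p6, with 24045 of 24100 matched. No 2 libraries of a line agreed within sampling noise.

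Both kinds were tested across all features in R 4.3.3 with edgeR 4.0.16 (filterByExpr with minimum count 10 and total 15, TMM scaling, quasi-likelihood test), with the 9 libraries of a kind in 1 fit of 3 groups. CPM are on the TMM scale, SE is the log2 fold change over the square root of F, and intervals are 95% intervals. The test was checked on simulated data first. Alternatives were the replicate block, DESeq2 1.42.0, RLE scaling, no filter, at least 10 counts in every library, 2 groups only, thinned counts, genes without TE loci, adjusted p alone and leaving out each library. Floors of 3 counts cover counting error only.

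The members, the other pathway genes and the markers were chosen with earlier results of these data known. Named were the members, *Atrx*, other pathway genes called in both clones (0 were), and for members called in both clones in both kinds the 2 genes of average log2 CPM of at least 1 with the highest Pearson r. The values of 1 gene of the pathway list are not reported here. Transcript lengths, overlapping genes and 31-base words come from GENCODE M21, promoters from RefSeq.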

Additional observations from a re-analysis of the deposited data

Results flagged for a closer look

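*Dll1* differed between the 2 *Atrx* KO clones by a test of that difference itself. In polyA libraries it was higher in sg5 than in sg6 by 2.21 on the log2 scale (SE 0.30, edgeR quasi-likelihood adjusted p = 0.0029), and every sg5 library was above every sg6 library. The difference was called in each of the 9 fits with 1 library left out. The sg6 libraries held 4, 6 and 3 counts of the gene. With 0 sg6 libraries over the cutoff of the low-count filter, *Dll1* could only be called higher in sg5, so these fits are no support for the difference.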

How the results depend on the processing

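The calls of *Jag2* in both kinds of library, and those of *Hey2* and of *Dll1* in sg6 in polyA libraries, kept their direction and their call under every alternative in which they were tested. In polyA libraries *Hey2* had only 2 WT libraries over the cutoff of the low-count filter and passed it through the clones. *Dll1* had 0 sg6 libraries over that cutoff and could only be called lower in sg6. The alternatives are therefore no support for these 2 calls of *Hey2* and *Dll1*. *Heyl* in polyA and *Hey2* in rRNA-depleted libraries could be called in 1 direction only, and their alternatives say nothing of stability. Members called in polyA libraries numbered 6 in sg5, 6 in sg6, 5 in both clones and 1 between clones. At least 10 counts in every library, which removes the rare members, left 3, 2, 2 and 0, and in rRNA-depleted libraries 1 in sg5, 0 in sg6 and 0 in both clones. Thinning the counts to the smallest library gave 0 between clones in polyA libraries, where *Dll1* no longer passed the filter on low counts and was not tested. By adjusted p alone, 7 other pathway genes were higher and 2 lower in both clones in polyA libraries and 1 higher in rRNA-depleted ones. With 1 library left out, the members called in sg5 in rRNA-depleted libraries numbered 2 to 5, and the other pathway genes lower in both clones in polyA libraries 0 to 1.

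*Hes1* in sg6 in polyA libraries was also called with DESeq2 (2.03, adjusted p = 0.0467) and with no filter (2.09, adjusted p = 0.0438), and in sg5 it was not called in the fit of only 2 groups (adjusted p = 0.0613). *Hey1* in sg6 in rRNA-depleted libraries was called with DESeq2 (1.94, adjusted p = 0.0459), with no filter (adjusted p = 0.00193) and with only 2 groups (adjusted p = 0.014). In sg5 it was not called with only 2 groups (adjusted p = 0.0564) or with at least 10 counts in every library (adjusted p = 0.0539), nor was *Notch1* with the latter (adjusted p = 0.0521).

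Leaving out 1 library turned the sign of small differences that were not called. The values ran, for *Notch3* in polyA libraries, from −0.33 to 0.20 in sg5, −0.16 to 0.43 in sg6 and −0.49 to 0.10 between clones, and in rRNA-depleted ones from −1.24 to 0.063, −0.59 to 0.10 and −1.11 to 0.18. *Notch2* in sg6 ran from −0.087 to 0.043 in polyA and −0.18 to 0.093 in rRNA-depleted libraries. Between clones *Hes1* ran from −0.30 to 0.69 in polyA libraries, and *Jag1* from −0.29 to 0.26 in polyA and −0.23 to 0.87 in rRNA-depleted ones.

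The replicate numbers in the labels were checked for pairing. Same-numbered polyA libraries of different lines had correlated deviations (r from 0.0257 to 0.430 over 9 pairs), not over 0.1 in every pair, although all 9 correlated best on average with their own number. In rRNA-depleted libraries r ran from −0.229 to 0.638 and 7 of 9 did so, so the numbers were not taken as pairs. With the replicate block 6 members were called in sg5, 7 in sg6, 6 in both clones and 1 between clones in polyA libraries, and 5, 2, 2 and 0 in rRNA-depleted ones. *Hes1* in sg6 was the added polyA call (2.27, adjusted p = 0.000449). Low counts limit *Dll1*, *Heyl* and the WT level of *Hey2*.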
